A study of Homo sapiens with 8 samples.

Results

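Some miRNAs mark the branches of blood-cell development, and 9 of them were followed in INA-6 cells, an established multiple myeloma (MM) cell line, that is, a line of malignant plasma cells grown with interleukin-6. They were taken by name, 9 of the 2549 human miRNAs on the array: hsa-miR-142-3p, hsa-miR-142-5p, hsa-miR-155-5p, hsa-miR-146a-5p, hsa-miR-146b-5p and hsa-miR-150-5p of B cells and other leukocytes, hsa-miR-223-3p of the myeloid branch, and hsa-miR-451a and hsa-miR-144-3p of the erythroid branch. Cells were given 1 μM of UNC1999, a small-molecule inhibitor of the histone methyltransferase EZH2, for 5 days, with medium and reagents renewed at 72 h, or the solvent DMSO, with 4 single-colour arrays in each group, all on 1 slide. The sample titles name DMSO as the control, whereas the treatment notes of the same samples name an inactive compound, UNC2400, and the control is called DMSO here as in the titles. The question was how the mature miRNA profile changes when EZH2 is inhibited.

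A mature miRNA guides the silencing complex to messenger RNAs that pair with its seed, the stretch near the 5′ end, and both arms of a hairpin can be used. miR-142 is expressed across the blood lineages and hardly outside them, miR-150 is high in mature lymphocytes, and miR-155 and the miR-146 paralogs are induced when immune cells are activated. miR-223 is a marker of granulocytes and monocytes, and miR-144 and miR-451 are made from 1 precursor transcript in red-cell precursors.

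Mature sequences of 7 of the 9 members were found in RefSeq (GRCh38.p14), and they are shown because the seed, bases 2 to 8, in capitals, sets the target range of each. There were 6 distinct seeds among them. The leukocyte and myeloid miRNAs with a seed of their own are these.
hsa-miR-142-3p: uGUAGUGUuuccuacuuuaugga
hsa-miR-142-5p: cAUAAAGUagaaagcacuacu
hsa-miR-155-5p: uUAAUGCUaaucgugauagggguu
hsa-miR-223-3p: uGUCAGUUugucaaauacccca

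The miR-146 paralogs, from chromosomes 5 and 10, share a seed. Counted from 1 at the 5′ end of miR-146a-5p, they differ by G18A and U21C, and miR-146b-5p is longer, 23 bases against 22.
hsa-miR-146a-5p: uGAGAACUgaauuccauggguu
hsa-miR-146b-5p: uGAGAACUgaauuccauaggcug

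The erythroid miR-144-3p has another seed.
hsa-miR-144-3p: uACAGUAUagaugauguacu

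miR-150-5p and miR-451a are given by name. Of other miRNAs on the array with a seed shown above, miR-5590-3p shares that of miR-142-5p and miR-7153-5p that of the miR-146 paralogs, and both were detected on 0 of 8 arrays. The seeds of miR-150-5p and miR-451a were not searched. The hairpins of MIR142, whose arms are both members, and of MIR223, whose 3p arm moved the other way from the other tested members in the scaled data, are shown with the mature arms in capitals, the 5p arm first. MIR142 lies at chr17:58331232-58331318 on the minus strand, inside the span of the non-coding genes MIR142HG and TSPOAP1-AS1. MIR223 lies at chrX:66018870-66018979 on the plus strand, inside the span of MIR223HG.
MIR142: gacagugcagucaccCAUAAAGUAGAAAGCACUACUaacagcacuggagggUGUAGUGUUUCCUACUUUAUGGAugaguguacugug
MIR223: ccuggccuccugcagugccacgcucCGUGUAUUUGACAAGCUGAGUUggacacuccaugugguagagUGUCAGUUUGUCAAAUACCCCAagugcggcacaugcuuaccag

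The values below are scaled signals: the background-subtracted brightness of the probes of a miRNA, summed and divided by the 75th percentile of its array relative to the geometric mean of that percentile over the 8 arrays, so that they are relative to the other miRNAs of that array. The level of one miRNA is not set against that of another, because probes differ. Detection is the call of the scanner software. A miRNA was tested where it was detected on all 4 arrays of a group, with limma over 456 miRNAs, and it was called when the adjusted p was 0.05 or less and the change reached 1.2-fold. The arrays of each group fell into alike pairs. The DMSO arrays of replicates 1 and 4 had 482 and 484 detected miRNAs and those of replicates 2 and 3 had 369 and 370, against 474 to 500 on the UNC1999 arrays. The alike pairs differed beyond spot noise: the median squared difference between DMSO replicates 1 and 4 was 2.70 in units of spot noise, between replicates 2 and 3 it was 3.46, and for UNC1999 it was 3.77 between replicates 1 and 3 and 6.07 between replicates 2 and 4. The pairs that were not alike gave 9.04 to 15.2, and noise alone gives 0.455. Repeat arrays of 1 RNA sample could also exceed spot noise, so these values do not show that the arrays come from separate cultures. The study describes them as biological replicates, and they were treated as such. RNA came from whole cultures, so fewer cells of a type and less RNA per cell cannot be told apart. With 4 arrays against 4, an exact permutation test cannot go below p = 0.029.

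After UNC1999, 4 of these lineage miRNAs changed relative to the other miRNAs of the array: miR-142-3p, miR-142-5p and miR-150-5p fell, by 0.36 to 0.56 on the log2 scale, though without scaling these 3 were positive and not called, and miR-223-3p rose. With normexp background correction the 3 lay within 0.06 of the median miRNA, and miR-223-3p was not called. In log2 fold change miR-142-5p (-0.29) and miR-150-5p (-0.35) were then still called lower, and miR-142-3p (-0.30) was not called. miR-155-5p was at the edge of detection, and miR-146a-5p, miR-146b-5p, miR-451a and miR-144-3p were detected on 0 of 8 arrays. Thus 4 of the 9 members were tested and 4 of 4 were called, where 70.6% of all tested miRNAs were called (322 of 456), 36.0% higher and 34.6% lower. Each of the 4 had all UNC1999 arrays on one side of all DMSO arrays, as had 65.4% of all tested miRNAs. With so high a background, the share of members called is no result about the members. The median log2 fold change was -0.44 over the tested members and 0.01 over all tested miRNAs, but -0.14 over the 346 miRNAs detected on all 8 arrays, as the 4 tested members were. Relative to that median miR-142-3p was at -0.38, miR-142-5p at -0.23, miR-150-5p at -0.43 and miR-223-3p at 1.32.

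miR-142-3p, the arm of miR-142 named for the 3′ side of the hairpin, had signals of 4006, 3197, 2995 and 3914 on the DMSO arrays of replicates 1 to 4. On the UNC1999 arrays the signals were 2833, 1973, 2621 and 2454. Every UNC1999 array lay below every DMSO array, and UNC1999 replicate 2 was the lowest. On the log2 scale the signal fell from 11.77 ± 0.21 to 11.26 ± 0.22 (SD, n = 4 each), which is -0.52 in log2 fold change, with a standard error of 0.14 and a limma adjusted p of 0.0091. Besides the scalings described below, 2 of which turned it positive, it lost its call with normexp background correction (-0.30, limma adjusted p = 0.068), when every miRNA was fitted, detected or not (still -0.52, limma adjusted p = 0.12), and in the authors' processed values (-0.26, limma adjusted p = 0.080), and the adjusted p of all alternatives ran from 0.0018 to 0.64.

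miR-142-5p, from the other side of the same hairpin, had signals of 340.3, 277, 274 and 336 on the DMSO arrays. After UNC1999 they were 245, 215, 236 and 253. The groups were again separate, with the DMSO arrays in the same 2 pairs as for the 3p arm. In log2 fold change this is -0.36, with a standard error of 0.11 and a limma adjusted p of 0.014. It was not called with the array's position in row 1 or 2 of the slide as a block (limma adjusted p = 0.081) or with no filter on detection (limma adjusted p = 0.092), among adjusted p values of 0.0024 to 0.49 over the alternatives.

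The arms of the hairpin printed above therefore moved in the same direction. The log2 ratio of miR-142-3p to miR-142-5p within an array was 3.52 ± 0.05 (SD, n = 4) in DMSO and 3.37 ± 0.16 (SD, n = 4) after UNC1999, a difference of -0.15 (exact permutation test, two-sided, p = 0.17). The groups overlapped, and a p above the threshold does not show that the arms changed equally.

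miR-150-5p, a regulator of lymphocyte development, had signals of 1765, 1592, 1520.4 and 1698 on the DMSO arrays. On the UNC1999 arrays they were 1189, 1186, 1083 and 994. The arrays of each group lay closer together than for miR-142-3p, and the groups were far apart. In log2 fold change the difference was -0.56, its standard error 0.10 and its limma adjusted p 0.0010. All 3 falls were smaller than 1.5-fold.

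The other arm of that hairpin, miR-150-3p, was the only other arm of the members' hairpins that was detected. The arms examined beside it were miR-155-3p, miR-146a-3p, miR-146b-3p, miR-223-5p and miR-144-5p. Its signals were 165, 102, 116 and 143 on the DMSO arrays and 144, 149, 162 and 169 on the UNC1999 arrays. The groups overlapped, and it was not called, with a log2 fold change of 0.27 (limma adjusted p = 0.13). Without DMSO replicate 1, its highest DMSO array, it was called at 0.38 (limma adjusted p = 0.028), but without DMSO replicate 2, its lowest, it was at 0.15 (limma adjusted p = 0.32) and without DMSO replicates 2 and 3 at 0.02 (limma adjusted p = 0.90), among adjusted p values of 0.0011 to 0.90. It was also called higher without scaling (0.96), with the spike-ins (1.08) and when the percentile was taken over every human miRNA (0.49), and it was at -0.20 with normexp background correction, not called. The log2 ratio of miR-150-5p to miR-150-3p within an array was 3.67 ± 0.23 (SD, n = 4) in DMSO and 2.84 ± 0.23 (SD, n = 4) after UNC1999. This ratio was chosen after the values were seen and was given no test. Its shift was smaller with normexp, where miR-150-5p was at -0.35 and miR-150-3p at -0.20, against -0.56 and 0.27 in the scaled data.

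miR-223-3p, the myeloid miRNA, moved the other way. Its signals were 35.7, 40.9, 44.5 and 32.2 on the DMSO arrays and 77.1, 117, 62.7 and 97.7 after UNC1999. The UNC1999 arrays were all higher, with replicates 2 and 4 above replicates 1 and 3, and the DMSO values lay near the limit of measurement. The log2 signal rose from 5.25 ± 0.21 to 6.43 ± 0.39 (SD, n = 4 each), a fitted change of 1.18 with limma adjusted p = 5.7e-04 (standard error 0.19). The size is an estimate, because many of its spots in DMSO were not well above background, and estimates by probe are given below. In the authors' processed values the change was 1.91, and with normexp background correction it was 0.04 and not called. The other arm, miR-223-5p, was detected on 0 of 8 arrays.

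**Figure D1:**
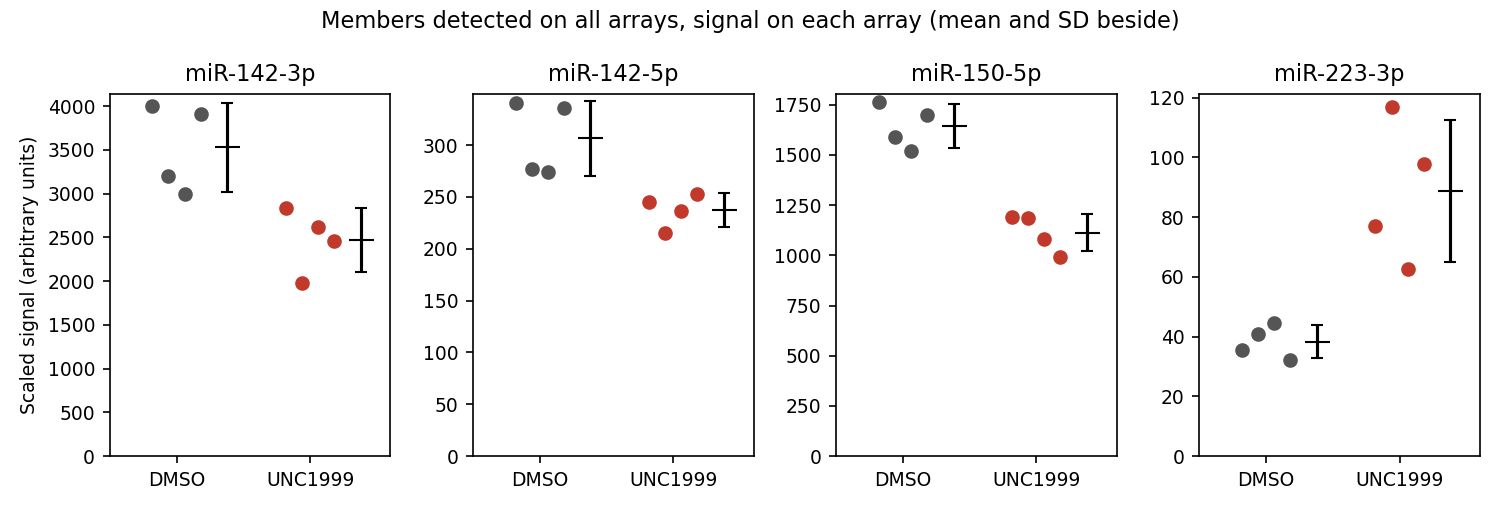
Scaled signal (arbitrary units) of the members detected on all 8 arrays, 1 panel each, with DMSO arrays in grey and UNC1999 arrays in red; each point is an array, in the order of the replicate numbers, and the bar beside each group is the mean and SD. miR-142-3p, miR-142-5p and miR-150-5p are lower and miR-223-3p is higher on each UNC1999 array than on any DMSO array, in signals scaled to the 75th percentile.

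The direction of the 3 falls depends on the scaling. Before scaling, the 75th percentile of the arrays was 419 ± 119 (SD, n = 4) in DMSO and 664 ± 88.3 (SD, n = 4) after UNC1999. Without scaling, the median log2 fold change of all tested miRNAs was 0.67, and the log2 fold changes were 0.18 for miR-142-3p, 0.33 for miR-142-5p and 0.13 for miR-150-5p, none called. Relative to that median they were -0.49, -0.34 and -0.54, and miR-223-3p, at 1.88, was above it. Scaled to the labelling spike-ins, the median was 0.78, miR-142-3p, miR-142-5p and miR-150-5p were again positive, and the 4 members stood at -0.48, -0.33, -0.53 and 1.22 relative to it. With the percentile taken over every human miRNA the median was 0.23 and only miR-223-3p was called.

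Background correction mattered as well. With normexp correction, which adds an offset of 50 to every spot, the median tested miRNA was at -0.29, and relative to it miR-142-3p was at -0.01, miR-142-5p at 0.01 and miR-150-5p at -0.06. Not set against the median, miR-142-5p was at -0.29 (limma adjusted p = 0.014) and miR-150-5p at -0.35 (limma adjusted p = 0.0092), both called lower. miR-223-3p was then at 0.04 (limma adjusted p = 0.82, the largest of its alternatives, which began at 7.6e-06), 0.33 above the median, and was not called. The split of the calls moved too, from 164 higher and 158 lower to 54 higher and 230 lower with normexp, 234 higher and 4 lower without scaling, 295 higher and 7 lower with the spike-ins, and 192 higher and 88 lower with the percentile over all human miRNAs.

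**Figure D2:**
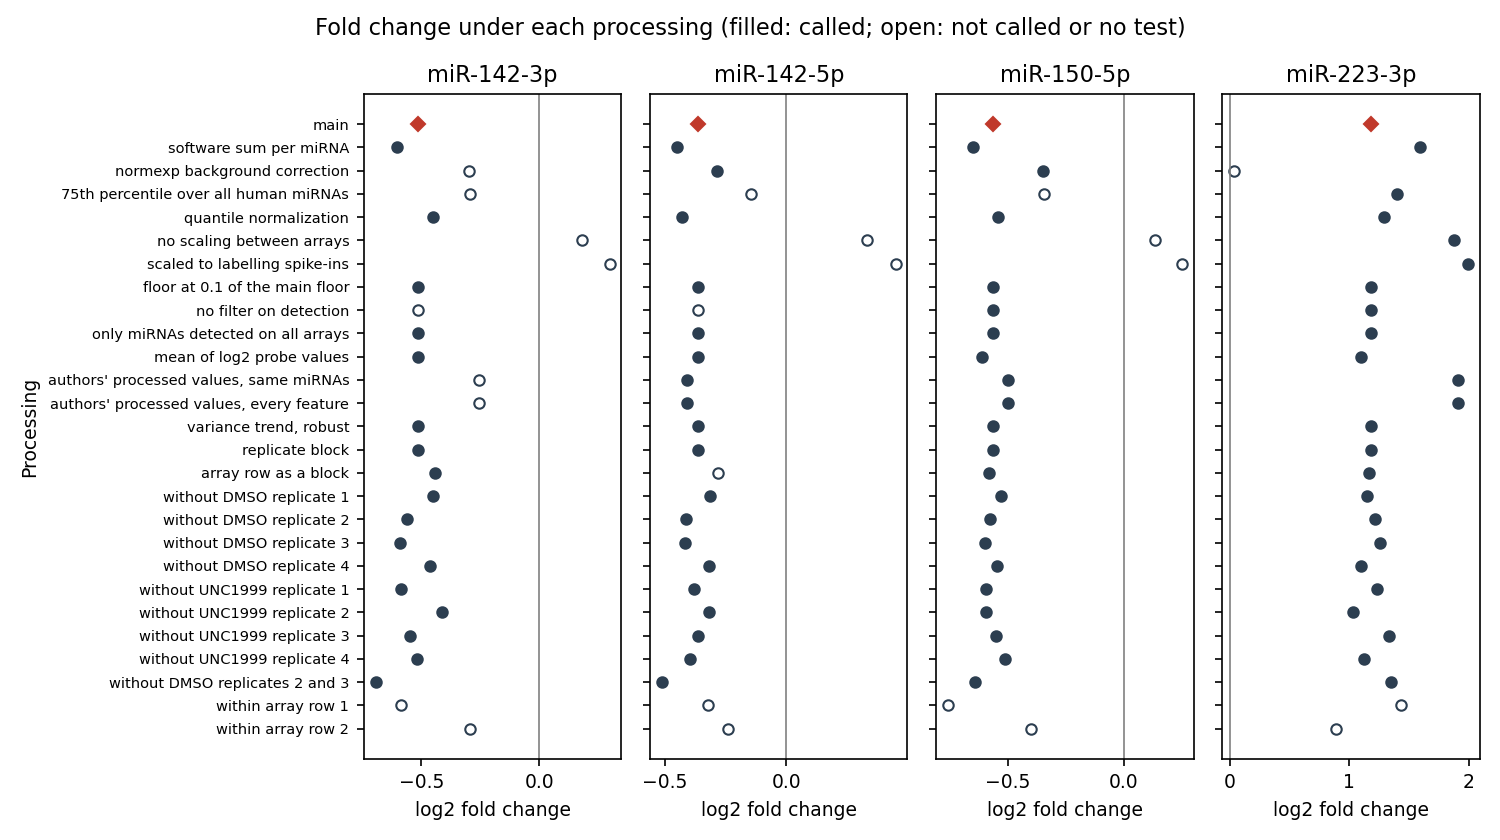
Log2 fold change, UNC1999 against DMSO, of the 4 tested members (x axes) under each processing (y axis); filled points are called, open points are not called or have no test, and the red diamond is the processing described above. miR-142-3p, miR-142-5p and miR-150-5p turn positive without scaling and with the spike-ins, and miR-223-3p stays positive in each, at 0.04 with normexp.

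Position on the slide largely followed treatment. Row 1 held 3 DMSO arrays and 1 UNC1999 array, and row 2 held 1 DMSO array and 3 UNC1999 arrays. Within row 1 the log2 fold changes were -0.59 for miR-142-3p, -0.32 for miR-142-5p, -0.76 for miR-150-5p and 1.44 for miR-223-3p. Within row 2 they were -0.29, -0.24, -0.40 and 0.89 in the same order. Without DMSO replicates 2 and 3, the arrays with the fewest detected miRNAs, an alternative chosen after seeing the data, the log2 fold changes were -0.69, -0.51, -0.64 and 1.35, and the 4 were called.

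A ratio within an array does not depend on a scaling by 1 factor per array, though quantile normalization can move it. The log2 ratio of miR-223-3p to miR-142-3p was -6.81, -6.29, -6.07 and -6.92 on the DMSO arrays and -5.20, -4.08, -5.38 and -4.65 on the UNC1999 arrays. The groups were separate, which follows from miR-223-3p being higher and miR-142-3p lower on each UNC1999 array and so adds no further evidence, and the fitted ratio was 1.70 higher after UNC1999 (exact permutation test, two-sided, p = 0.029, or 0.038 adjusted over the 4 ratios tested). The ratio of miR-223-3p to miR-142-5p was 1.54 higher and that to miR-150-5p 1.74 higher, each with an exact permutation p of 0.029, 0.038 adjusted. With quantile normalization the 3 differences were 1.74, 1.72 and 1.83, with the same exact permutation p, but with normexp the differences were 0.33, 0.32 and 0.39 and none passed the exact test.

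**Figure D3:**
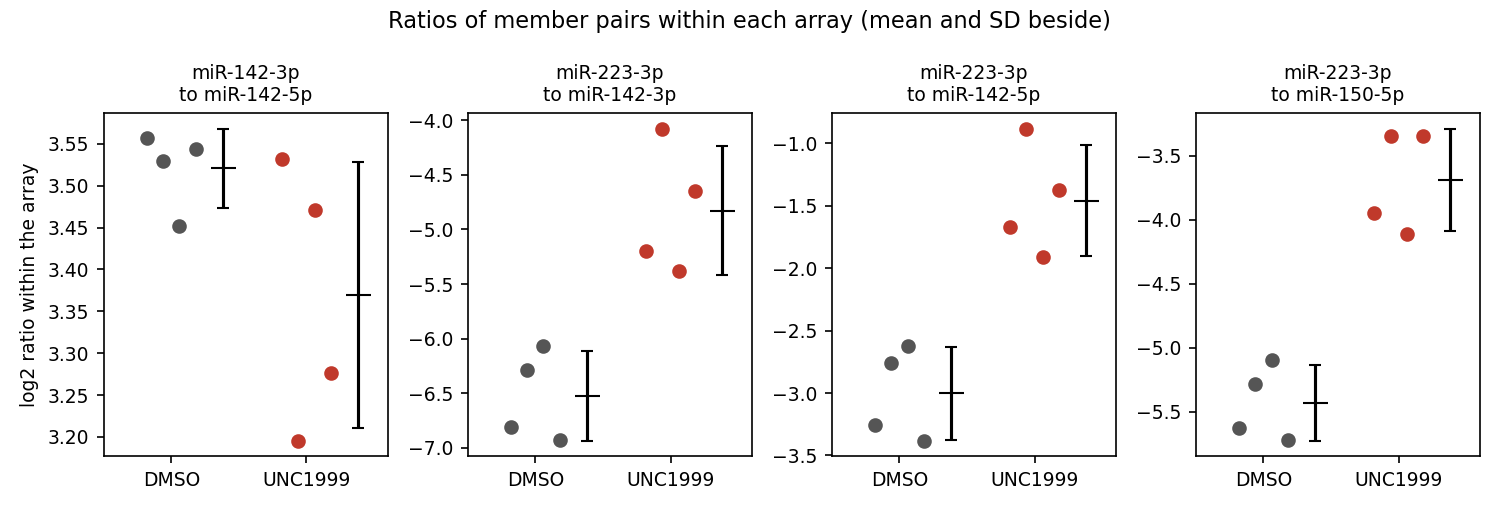
Log2 ratio of 2 members within each array (y axes, each with its own range) for the 4 pairs tested, DMSO in grey and UNC1999 in red, with the mean and SD beside. The 3 ratios with miR-223-3p are separate between the groups, whose means differ by 1.54 to 1.74, and the ratio of the miR-142 arms overlaps.

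The separate probes of a member can be read one by one. The probes of miR-142-3p gave log2 fold changes of -0.52 and -0.51, those of miR-142-5p -0.39 and -0.34, and those of miR-150-5p -0.69, -0.60 and -0.54. All 7 of these probes were well above background in every spot of the 8 arrays, and each had an exact permutation p of 0.029. Both probes of miR-223-3p were higher, but in DMSO the first was well above background in 1 of 40 spots and the second in 20 of 40, against 40 of 40 for both after UNC1999. DMSO signals were therefore raised, where lower, to the lowest signal of a probe with most spots well above background on that array. The group means on the log2 scale then differed by 1.11-fold for the first probe and 2.32-fold for the second. These are estimates in the scaled signals, not minimum folds. The first probe read 22.1, 36.7, 18.6 and 30.0 on the UNC1999 arrays, against limits of 15.8 to 32.9 on the DMSO arrays.

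**Figure D4:**
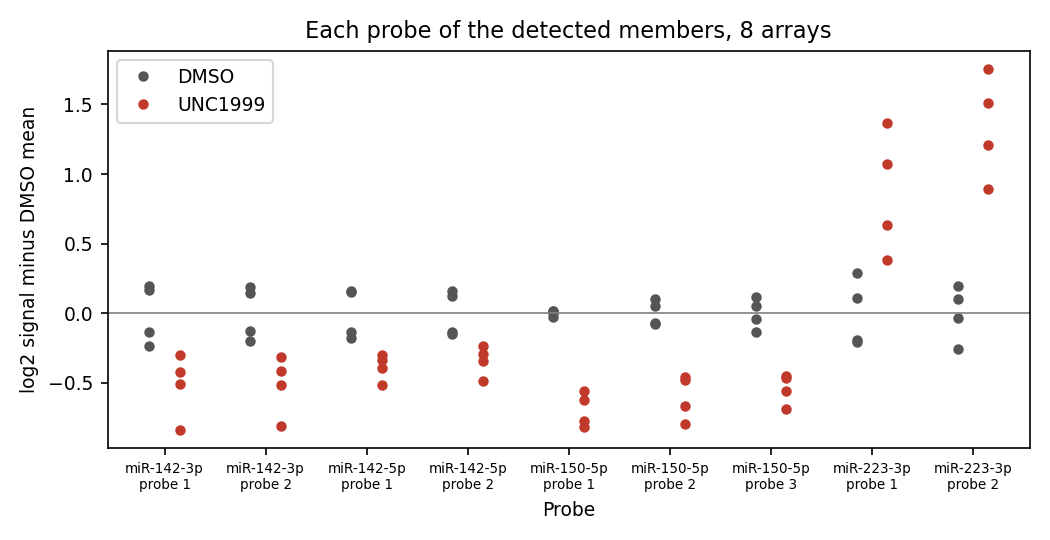
Log2 signal of each probe of the 4 detected members on each array, minus the mean of the DMSO arrays (y axis), DMSO in grey and UNC1999 in red. Both probes of miR-223-3p lie higher after UNC1999, and the 7 other probes lie lower in these scaled signals. Many DMSO spots of the miR-223-3p probes were not well above background. With low DMSO signals raised to the limit of measurement, the estimated rises are 1.11-fold for the first and 2.32-fold for the second.

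miR-155-5p, the miRNA of activated lymphocytes, was detected only after UNC1999, on the arrays of replicates 1 and 4, that is, on 0 and 2 arrays of 4. Its signals were 14.0, 10.1, 14.5 and 13.2 in DMSO and 18.4, 16.5, 16.1 and 21.4 after UNC1999. The UNC1999 values were the higher, but no fold is given, since neither group had it on all arrays. Of 40 spots a group, its probes were well above background in 0 and 0 in DMSO and in 1 and 3 after UNC1999, and these spots were on replicates 2 and 3, where it was not detected. With no filter on detection it was not called (limma adjusted p = 0.13).

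The 4 remaining members stayed at background. The signals of miR-146a-5p lay between -3.69 and 1.49 and those of miR-146b-5p between 2.28 and 11.5. The erythroid miR-451a lay between 0.271 and 6.75 and miR-144-3p between -4.52 and 1.37. Their genes, MIR451A and MIR144, are neighbours on chromosome 17, together with MIR451B, and miR-451b and miR-144-5p were detected on 0 of 8 arrays too.

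**Figure D5:**
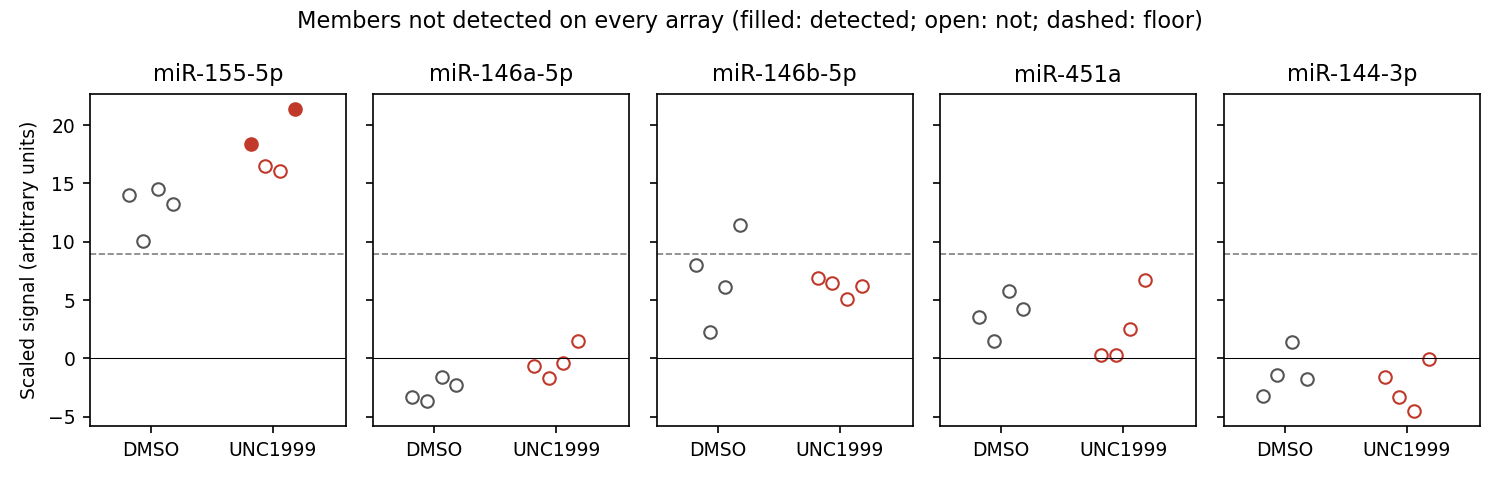
Scaled signal (arbitrary units) of the 5 members not detected on every array, DMSO in grey and UNC1999 in red; filled points are detected, open points are not, and the dashed line is the floor of 8.98 that was set before log2 was taken. The 2 filled points are miR-155-5p on UNC1999 replicates 1 and 4, and miR-146a-5p, miR-451a and miR-144-3p lie below the floor throughout.

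The lineage label of the cells was set against marker miRNAs. Of the members of B cells and other leukocytes, miR-142-3p, miR-142-5p and miR-150-5p were detected on all 8 arrays, miR-155-5p on 2, and miR-146a-5p and miR-146b-5p on 0. The erythroid miR-451a, miR-144-3p and miR-486-5p were detected on 0 arrays, but 4 of the 9 miRNAs of the other erythroid list, among them miR-16-5p, were detected on all. The stem-cell and endothelial miR-126-3p was detected on 0 arrays, but 3 of the 9 of the stem and progenitor list, among them miR-125b-5p, were detected on all. Of 32 miRNAs of liver, muscle, nerve, epithelium, stroma and pluripotent cells, 31 were detected on no array. The exception was miR-128-3p of the neural list, which also occurs in blood-cell progenitors, with a log2 fold change of -0.68 (limma adjusted p = 5.3e-04), which turned to 0.015 without scaling and 0.13 with the spike-ins. The myeloid miR-223-3p was detected on all 8 arrays, as were 7 of the 9 miRNAs of the other myeloid list. The B-cell and plasma-cell list also had 7 of 9 detected on all, so detection did not separate these lists. Whether a few cells of another lineage or every cell carried miR-223-3p was not tested.

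Other blood-cell miRNAs were taken from 4 lists of 9 each. Of the 36, 23 were tested, 14 were called lower, 1 was called higher and 8 were not called, with a median log2 fold change of -0.52. Over all tested miRNAs 36.0% were called higher, 34.6% lower and 70.6% in either direction, and of the 346 detected on all 8 arrays 109 were called higher and 139 lower. Whether the lists differ from these was not tested. The stem and progenitor list had 3 called lower, among them miR-125b-5p and miR-100-5p, and 1 called higher, miR-130a-3p. It was detected on the UNC1999 arrays alone, entered the test through that group and was at -0.20 with normexp. Its group means on the log2 scale differed by 2.31-fold in the scaled signals. Each DMSO signal was taken there as the lowest detected signal of that array (8.43 to 23.1), or its own where higher. The probe floors used for miR-223-3p were higher (15.8 to 32.9), and against them the fold would be smaller, so 2.31 is not a minimum. The B-cell and plasma-cell list had 4 lower of 7 tested, with miR-148a-3p at -1.30, and the erythroid list had 4 lower of 5, with miR-16-5p at -0.56. Another of these 4 was detected on 4 DMSO and 2 UNC1999 arrays and so entered the test through DMSO, where it was higher. The myeloid list had 3 lower of 7, with miR-29a-3p at -0.99, and none called higher, unlike miR-223-3p. Without scaling and with the spike-ins none of these named falls was called, and miR-16-5p turned to 0.13 and 0.25; it was also not called in the authors' values, with quantile normalization or with the percentile over every human miRNA.

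The miRNAs whose pattern over the 8 arrays was most like that of each member were found by the root mean square difference of mean-centred log2 signals. The nearest to miR-142-3p was miR-424-5p (0.049), to miR-142-5p miR-96-5p (0.072) and to miR-150-5p miR-107 (0.044). miR-101-3p was among the 3 nearest of both miR-142 arms, at 0.076 and 0.082. The nearest to miR-223-3p were miR-4485-3p (0.23), miR-1246 (0.23) and miR-630 (0.29), farther off than those of the other members.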

How the data were processed

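Members and lists were chosen with earlier results of these data known. For each array the authors deposited what the scanner software (Agilent Feature Extraction 10.7.3.1) had written, with a background-subtracted intensity per spot, not normalized between arrays. A second deposited table holds processed log2 values; its centring is unknown, and its column medians are -3.31, -3.13, -3.13, -3.31, -3.32, -3.32, -3.32, -3.30 for DMSO and then UNC1999 replicates 1 to 4. Outlier spots were left out, spots were averaged within a probe and probes added within a miRNA. Arrays were scaled by the 75th percentile of the 346 miRNAs detected on all 8, and signals under 8.98 were set to 8.98 before log2, which understates changes of dim miRNAs. The 456 miRNAs were fitted with limma 3.58.1 in R 4.3.3 with Benjamini-Hochberg adjustment. Single values had exact permutation tests, two-sided. The limma fit and the calling rule were tested on simulated log2 values. Background correction, scaling and the floor were not simulated. Named miRNAs were the members, the other arms, called miRNAs of the lists, seed mates and the 3 nearest patterns. Alternatives were other signal columns, background corrections, scalings, floors, filters, variance models, the authors' values, blocks and left-out arrays. Sequences and gene order came from RefSeq tables of GRCh38.p14; the scanner files name another build, and no coordinate was taken from them.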

Additional observations from a re-analysis of the deposited data

Results flagged for a closer look

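In 32 groups of 4 values examined for a sample far from the others, 1 stood out, where chance gives about 1.6 (5% of groups). miR-130a-3p on DMSO replicate 4 was at 3.22 on the log2 scale, and the other 3 DMSO arrays were at the floor, 3.17. With 3 values set to the floor, any value above it would stand out, so the flag cannot be set against the chance rate. It was detected on none of the 4 DMSO arrays.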

How the results depend on the processing

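The count of members called was 3 or 4 in 21 of 28 alternatives (3 in the authors' values and with array row as a block). Fewer were called with normexp (2) and with no filter on detection (2). The percentile over all human miRNAs, no scaling and the spike-ins gave 1 each. A paired test after Benjamini-Hochberg gave 2, and a fold of at least 1.5 gave 1. For the arrays the methods name a moderated t-test, and a paired t-test stands only under general statistics. Of all tested miRNAs, 195 were called with no filter, 206 over every feature of the authors' table, 152 with that paired test adjusted and 175 at a fold of at least 1.5. With each array left out in turn 292 to 326 were called, and 4 members each time.

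Without scaling and with the spike-ins, miR-142-3p was at 0.18 and 0.30, miR-142-5p at 0.33 and 0.45, miR-150-5p at 0.13 and 0.25, miR-16-5p at 0.13 and 0.25 and miR-128-3p at 0.015 and 0.13. With normexp, miR-150-3p was at -0.20 and miR-130a-3p at -0.20. miR-142-3p was also not called in the authors' values (-0.26). Beyond the shift of the median, the cause was not tested.

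The ratios of miR-223-3p to miR-142-3p, miR-142-5p and miR-150-5p differed by 0.33, 0.32 and 0.39 with normexp (exact permutation p 0.37, 0.17 and 0.14). Without DMSO replicates 2 and 3, chosen after seeing the data, they differed by 2.04, 1.86 and 1.99, with exact p = 0.067, the smallest that 2 against 4 can give. Within row 2 they differed by 1.18, 1.13 and 1.29, and within row 1 the last differed by 2.20. With each array left out the first ranged from 1.45 to 1.88, the second from 1.35 to 1.70 and the third from 1.63 to 1.89.

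The replicate numbers did not show as pairs in the signals. Correlations of same-numbered deviations were 0.24, 0.38, -0.46 and -0.46, and 1 of the 4 numbers correlated best with its own. Whether same-numbered cultures were set up together cannot be read from these correlations. The alike pairs did match across the groups. Deviations of DMSO replicates 1 and 4 with UNC1999 replicates 1 and 3, and of DMSO 2 and 3 with UNC1999 2 and 4, correlated at 0.15 to 0.54. The other DMSO and UNC1999 combinations gave -0.47 to -0.09. This match was read from the data, and no fit with it as a block is given. With the replicate block 308 miRNAs and 4 members were called. Signal over background limits miR-223-3p and miR-155-5p in DMSO.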
